A study of Mus musculus with 9 samples.

Results

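The genes described here are 9 genes of adrenergic and cAMP signalling in the mouse left ventricle, chosen by name out of the 52636 Ensembl genes counted, and all 9 were found in the table and passed the filter on low counts, as did 16322 genes in all. They are the receptor genes *Adrb1*, *Adra1a* and *Adra1b*, the adenylyl cyclase genes *Adcy5* and *Adcy6*, the phosphodiesterase genes *Pde3a* and *Pde4d*, the protein kinase A gene *Prkaca* and the phosphatase inhibitor gene *Ppp1r1a*, and they were picked with earlier results of the same libraries known, among them how these genes stood in libraries low and high in *Vdac2*. Total RNA was sequenced from transmural left ventricle of 16-week-old C57BL6J mice. In the study, the label WT (libraries 1 to 5, n = 5) stands for littermates that carry either the floxed *Vdac2* allele or the Cre transgene, and the label KO (libraries 6 to 9, n = 4) for *Vdac2* flox/flox; αMHC-Cre mice. VDAC2 is a porin of the outer mitochondrial membrane. The αMHC promoter drives Cre in cardiac myocytes, so the other cells of the ventricle keep the gene. The labels do not say that each library is a separate animal, so the p-values measure only the spread between these libraries.

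Noradrenaline and adrenaline act on the heart through beta receptors, which couple to the stimulatory G protein, and through alpha1 receptors, which couple to Gq. The stimulatory G protein activates adenylyl cyclase, cAMP releases the catalytic subunits of protein kinase A (PKA), and PKA phosphorylates calcium channels, the ryanodine receptor, phospholamban and sarcomere proteins, which raises the rate and force of the beat. Phosphodiesterases break cAMP down, and protein phosphatases, held in check by inhibitor proteins, remove the phosphate.

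The level of *Vdac2*, the deleted gene, goes against the labels in several libraries. Values by library are listed in order, libraries 1 to 5 under the WT label and 6 to 9 under the KO label, in CPM, the count scaled to the total of its library after TMM (trimmed mean of M-values) adjustment. *Vdac2* was at 20.2, 366, 58.5, 365 and 21.3 CPM under the WT label and at 384, 20.5, 421 and 19.1 CPM under the KO label. Libraries 1 and 5 are thus labelled WT and low, and libraries 6 and 8 are labelled KO and high. Library 3, also labelled WT, was at 58.5 CPM, between the other low libraries and the high ones, and it stood apart in its cell type markers as well. The groups are therefore named by their labels only, and libraries were not regrouped by *Vdac2*. The labels also coincide with the sequencing lane that the sample descriptions carry, and with the sex-linked genes, since *Xist* was at most 0.152 CPM in libraries labelled WT and at least 335 CPM in those labelled KO, so genotype label, lane and sex cannot be told apart.

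Depth was 27345052 to 32469135 counts under the WT label and 36477141 to 44673988 under the KO label. A floor of 3 counts lay at 0.0693 to 0.114 CPM, which allows for counting error only. Library 3, labelled WT, stood apart from the rest. The 8 cardiomyocyte markers listed, all of them detected, summed to 14435 CPM in library 3 and to 50568 to 69561 CPM in the other libraries, and the 5 activated fibroblast markers summed to 4857 CPM in library 3 against 285 to 894 CPM. The 6 endothelial markers summed to 535 CPM in library 3 against 919 to 1276 CPM, the 6 smooth muscle and pericyte markers to 616 CPM against 1436 to 1941 CPM, and the 6 macrophage markers to 1322 CPM against 264 to 584 CPM. The 6 fibroblast markers summed to 5714 CPM against 1159 to 1874 CPM. Not all markers of a type went with their sum. Library 3 was the lowest for 4 of the 6 smooth muscle and pericyte markers and the highest for 2. It was the highest for 4 of the 6 fibroblast and 5 of the 6 macrophage markers, and the lowest for 1 of each. The 5 atrial myocyte markers summed to 3351 CPM in library 3, and to 955, 75.9, 83.2 and 160.4 CPM in the other libraries labelled WT and 106, 403, 74.9 and 1526 CPM in those labelled KO. Nearly all of that sum was *Nppa*, atrial natriuretic peptide, which stressed ventricle also makes, since the other 4 atrial markers together reached 1.94 to 4.29 CPM in every library. Lymphocyte markers summed to 0.804 to 1.40 CPM and adipocyte markers to 0.0328 to 0.501 CPM over the libraries. In bulk tissue, fewer cells of a type and less RNA per cell cannot be told apart.

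The start regions of the 3 genes with the lowest unadjusted p between the labels, *Prkaca*, *Adrb1* and *Adcy5*, are shown because cAMP acts on transcription through the cAMP response element, whose full form is TGACGTCA and whose shorter form is TGACG, read on the opposite strand as CGTCA. The sequences are from RefSeq (GRCm38.p6), run from 250 bases before to 50 bases after an annotated start, 5′ to 3′ on the strand of the gene, and capitals mark every match to the shorter form. Windows were found for 5 of the 9 genes (*Prkaca*, *Adrb1*, *Adcy5*, *Adra1b* and *Pde4d*), 7 windows in all.
*Prkaca*, chr8:83972728-83973027, plus strand: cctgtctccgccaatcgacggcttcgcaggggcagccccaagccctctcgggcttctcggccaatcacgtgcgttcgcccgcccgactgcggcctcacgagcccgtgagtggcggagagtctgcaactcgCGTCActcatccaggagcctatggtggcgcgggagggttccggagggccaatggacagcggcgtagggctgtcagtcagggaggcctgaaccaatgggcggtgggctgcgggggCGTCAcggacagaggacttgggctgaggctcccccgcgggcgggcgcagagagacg
*Adrb1*, chr19:56721867-56722166, plus strand: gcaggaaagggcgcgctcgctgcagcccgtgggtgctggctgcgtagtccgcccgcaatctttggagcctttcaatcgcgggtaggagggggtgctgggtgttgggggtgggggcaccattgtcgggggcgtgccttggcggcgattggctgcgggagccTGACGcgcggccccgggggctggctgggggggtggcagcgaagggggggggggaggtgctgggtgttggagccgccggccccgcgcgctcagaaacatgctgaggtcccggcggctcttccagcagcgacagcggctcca
*Adcy5*, chr16:35154614-35154913, plus strand: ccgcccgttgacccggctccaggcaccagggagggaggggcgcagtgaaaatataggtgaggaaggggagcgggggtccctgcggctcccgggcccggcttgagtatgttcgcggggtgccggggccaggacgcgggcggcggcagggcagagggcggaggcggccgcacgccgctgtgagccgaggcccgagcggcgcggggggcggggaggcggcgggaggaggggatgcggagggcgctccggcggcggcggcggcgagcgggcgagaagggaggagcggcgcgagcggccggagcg

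None of the 7 windows held the full element, which 1.79% of all 32851 promoter windows hold. The shorter form occurred in 2 of the 7, the first *Prkaca* window and the *Adrb1* window, against 20.8% of all windows. A match is a run of letters and was not tested as a binding site.

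**Figure D1:**
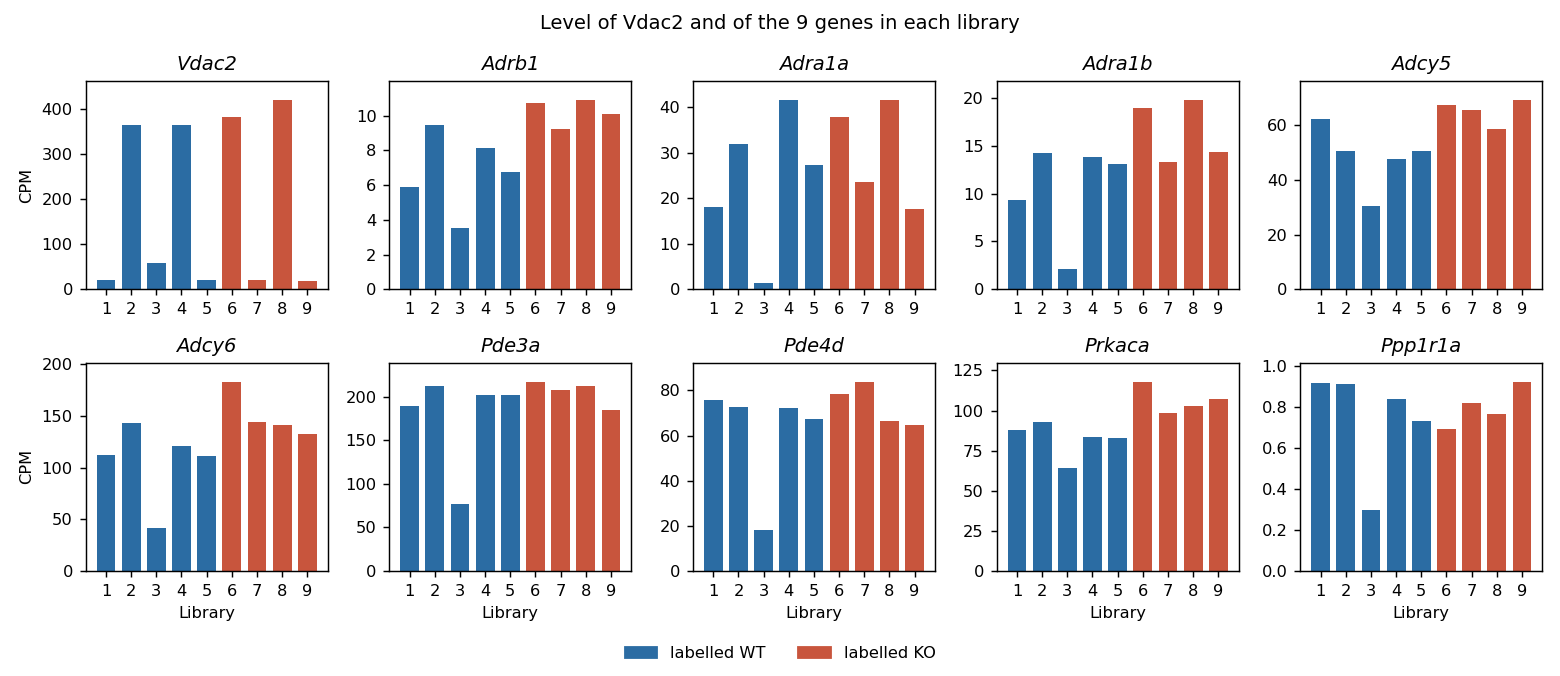
Level of *Vdac2* and of the 9 genes in each of the 9 libraries (bars, CPM, linear axis from 0), with libraries labelled WT in blue and labelled KO in red. Library 3 holds the lowest bar for all 9 genes, for example 1.27 CPM for *Adra1a*, while *Vdac2* is high in libraries of both labels.

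*Adrb1*, the beta1 receptor and the main beta receptor of the ventricular myocyte, had the lowest unadjusted p between the labels of the 3 receptors among the 9 genes. It lies on chromosome 19 of GRCm38 from 56722199 to 56733113 (ENSMUSG00000035283). Its level was 5.91, 9.47, 3.51, 8.14 and 6.74 CPM under the WT label and 10.7, 9.20, 10.9 and 10.1 CPM under the KO label. The labels overlapped only through library 2, which was above library 7. Its mean was 6.75 ± 2.27 CPM (SD, n = 5) under the WT label against 10.2 ± 0.778 CPM (SD, n = 4) under the KO label. In edgeR's fit the log2 fold change was 0.60 with a standard error of 0.25, a fold of 1.52, which did not pass the quasi-likelihood test over all genes (unadjusted value 0.0368, adjusted p = 0.679). Permuting the labels exactly, in a two-sided test on log2 CPM, gave an unadjusted p = 0.0317, where 126 splits allow 0.0159 at the lowest. *Adrb3*, the beta3 receptor, had a highest level of 0.0328 CPM, under the floor.

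*Adra1a*, the alpha1A receptor, varied more between libraries than any other of the 9 genes. It lies on chromosome 14 from 66635251 to 66771168 (ENSMUSG00000045875). It was at 18.1, 31.9, 1.27, 41.6 and 27.4 CPM under the WT label and at 37.9, 23.6, 41.5 and 17.7 CPM under the KO label. From lowest to highest, the libraries stood in the order 3, 9, 1, 7, 5, 2, 6, 8 and 4, and both labels are found at either end of that order. The median of the other 8 libraries was 23.4 times the level in library 3, which held 47 counts, while the cardiomyocyte marker sum of those libraries had a median 4.07 times that of library 3. Among the 8 libraries without library 3, the highest was 2.35 times the lowest. Between the labels the log2 fold change was 0.33 (SE 0.70; edgeR adjusted p = 0.866), and without library 3 it was 0.013 (adjusted p = 0.99).

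The 4 highest *Adra1a* levels, in libraries 4, 8, 6 and 2, were in libraries where *Vdac2* was at 365, 421, 384 and 366 CPM. The other libraries, in rising order of *Adra1a* 3, 9, 1, 7 and 5, had *Vdac2* at 58.5, 19.1, 20.2, 20.5 and 21.3 CPM. The same 4 libraries were not the highest for any other of the 9 genes: those of *Adcy5* were 9, 6, 7 and 1, and those of *Pde4d* 7, 6, 1 and 2. The split was not particular to *Adra1a* in the wider gene list described below. There the same 4 libraries were the highest for several genes, among them *Adra2b*, *Adcy8*, *Pde4c*, *Pkia*, *Akap1*, *Slc22a3* and *Maob*. How the genes stood in libraries low and high in *Vdac2* was known when they were picked, so these values are a description, and no correlation is given. *Adra1a* shares its chromosome with *Vdac2*, which lies from 21825238 to 21845879. The genes of the wider list just named lie elsewhere, in their order on chromosomes 2, 15, 8, 3, 11, 17 and X. A part of chromosome position in these values was not tested.

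*Adra1b*, the alpha1B receptor (ENSMUSG00000050541, chromosome 11 from 43774606 to 43901210), had the largest log2 fold change of the 9 genes between the labels in edgeR with all libraries, with a wide error. It was at 9.32, 14.3, 2.16, 13.8 and 13.1 CPM under the WT label and at 19.0, 13.3, 19.8 and 14.4 CPM under the KO label. Libraries 6 and 8, labelled KO, were the highest, and library 7 lay among the libraries labelled WT. A log2 fold change of 0.66 (SE 0.44) had an edgeR adjusted p of 0.68, the exact permutation test of this gene alone, unadjusted, gave p = 0.0635, and without library 3 the estimate was 0.39 (adjusted p = 0.391). *Adrb1* had the larger estimate without library 3 (0.43), without library 8 and in limma voom with quality weights. Of the remaining alpha receptors, *Adra1d* was at 0.62 to 1.28 CPM and *Adra2b* at 0.378 to 1.79 CPM, and *Adra2a* and *Adra2c* did not pass the filter on low counts.

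*Adcy5* and *Adcy6* encode the calcium-inhibited adenylyl cyclases that predominate in cardiac myocytes. *Adcy5* (ENSMUSG00000022840, chromosome 16 from 35154877 to 35305738) was at 62.5, 50.6, 30.4, 47.7 and 50.5 CPM under the WT label and at 67.5, 65.5, 58.5 and 69.3 CPM under the KO label. Library 1 alone of those labelled WT was above a library labelled KO, library 8. The KO-labelled mean of 65.2 ± 4.72 CPM (SD, n = 4) stood against 48.3 ± 11.5 CPM (SD, n = 5), and the log2 fold change of 0.43 (SE 0.18) had an unadjusted value of 0.0363 and an adjusted p of 0.679 in edgeR. The exact permutation test, unadjusted, gave p = 0.0317.

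*Adcy6* (ENSMUSG00000022994, chromosome 15 from 98589973 to 98610076) was at 112, 143, 41.4, 121 and 111 CPM under the WT label and at 183, 144, 141 and 132 CPM under the KO label. Library 6 was the highest, and library 2, labelled WT, lay among the libraries labelled KO. For *Adcy6* the log2 fold change of 0.51 (SE 0.30) had an edgeR adjusted p of 0.679, the exact permutation test of this gene alone, unadjusted, gave p = 0.0476, and the estimate was 0.29 without library 3. At 8.92% of its exon bases *Adcy6* overlaps *Gm29331* on the opposite strand, which reached 0.0264 CPM.

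The phosphodiesterase genes were the steadiest of the set apart from library 3. *Pde3a*, whose product is inhibited by cGMP and is the target of milrinone, lies on chromosome 6 from 141249269 to 141507448 (ENSMUSG00000041741). Its level was 189, 212, 77.1, 202 and 202 CPM under the WT label and 217, 208, 212 and 185 CPM under the KO label. Outside library 3 the highest library was 1.18 times the lowest, and the labels overlapped throughout. Its log2 fold change was 0.22 (SE 0.26; edgeR adjusted p = 0.768) with all libraries and 0.023 without library 3. *Gm28523*, on the opposite strand, shares 5.82% of the *Pde3a* exon bases and reached 0.989 CPM.

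*Pde4d*, a cAMP-specific phosphodiesterase that is found in complexes with the ryanodine receptor and the beta receptors, lies on chromosome 13 from 108449948 to 109953461 (ENSMUSG00000021699). It was at 75.9, 72.5, 18.3, 72.2 and 67.3 CPM under the WT label and at 78.3, 83.9, 66.4 and 64.6 CPM under the KO label. Libraries 8 and 9, labelled KO, were below the libraries labelled WT other than library 3, and libraries 6 and 7 above them. As for *Pde3a*, the estimate shrank when library 3 was left out, from 0.26 on the log2 scale (SE 0.35; edgeR adjusted p = 0.788) to 0.020.

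*Prkaca*, the catalytic subunit alpha of PKA, was the only one of the 9 genes whose labelled groups did not overlap (1 of 9), as was the case for 4.36% of all genes tested, and for 2.3% with labelled KO the higher. It lies on chromosome 8 from 83972993 to 83996443 (ENSMUSG00000005469). The level was 88.1, 93.1, 64.2, 83.4 and 82.9 CPM under the WT label and 118, 98.5, 103 and 107 CPM under the KO label. From 82.3 ± 10.9 CPM (SD, n = 5) to 107 ± 8.39 CPM (SD, n = 4), the difference was 0.37 on the log2 scale (SE 0.12). edgeR gave an unadjusted value of 0.0101 and an adjusted p of 0.679. Exact permutation gave an unadjusted p = 0.0159, the smallest that test can give. Without library 3 the log2 fold change was 0.29 (adjusted p = 0.171).

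*Ppp1r1a*, which encodes inhibitor 1 of protein phosphatase 1, was the lowest of the 9 genes and rested on 11 to 40 counts per library. It lies on chromosome 15 from 103530279 to 103538003 (ENSMUSG00000022490). It was at 0.919, 0.914, 0.297, 0.837 and 0.732 CPM under the WT label and at 0.690, 0.817, 0.765 and 0.923 CPM under the KO label. Outside library 3 the levels lay within 1.34 times of each other in both labels. Its log2 fold change was 0.12 (SE 0.31; edgeR adjusted p = 0.892) and turned to -0.091 without library 3.

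Set against exon length, the kinase was the most abundant of the 9 transcripts and the phosphatase inhibitor the least. In CPM per kilobase of annotated exon, the median over the 9 libraries was 37.4 for *Prkaca*, 19.5 for *Adcy6*, 15.8 for *Pde3a*, 8.15 for *Adcy5*, 6.02 for *Pde4d*, 4.07 for *Adra1b*, 3.14 for *Adra1a*, 2.72 for *Adrb1* and 0.626 for *Ppp1r1a*. Within libraries, each of the first 4 neighbours in this order was above the next in 9 of 9 libraries, as was *Adrb1* above *Ppp1r1a*. *Pde4d* was above *Adra1b* in 8 of 9, *Adra1b* above *Adra1a* in 8 of 9, and *Adra1a* above *Adrb1* in 6 of 9 libraries, so these 3 pairs did not keep their order in every library. Over the libraries the ranges of all neighbours overlapped except those of *Adrb1* and *Ppp1r1a*.

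**Figure D2:**
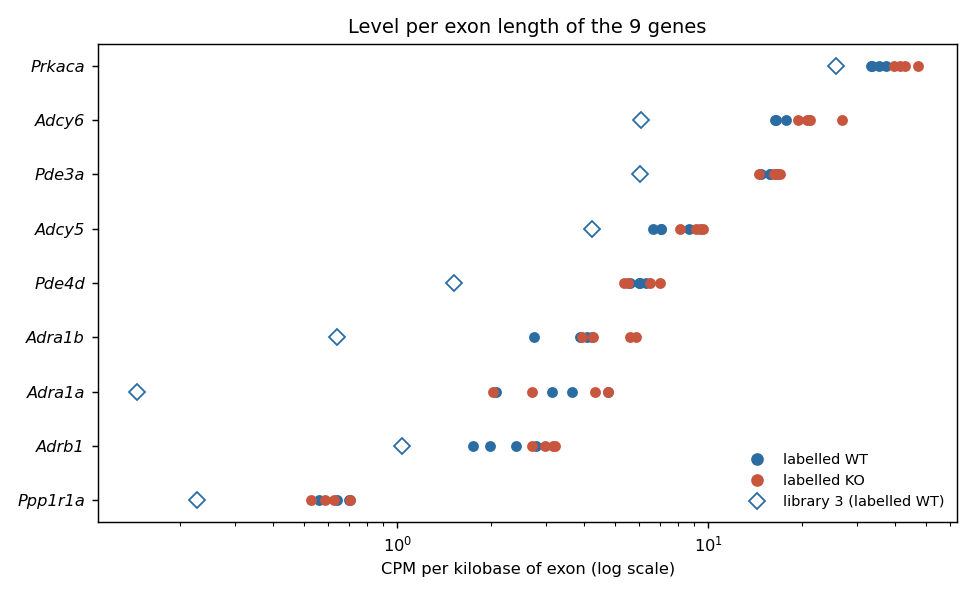
Level of the 9 genes in CPM per kilobase of exon (log axis), 1 point per library, with labelled WT in blue, labelled KO in red and library 3 as an open diamond. *Prkaca* has a median of 37.4 and *Ppp1r1a* one of 0.626, and the diamond lies to the left of every other point in each row.

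Between the labels, 0 of the 9 genes passed an adjusted p of 0.05, against 0.0551% of all genes tested (9 genes, edgeR), and DESeq2 (0.429% of all genes) and limma voom with quality weights (0.472%) also gave 0 of 9. At an unadjusted value under 0.05 in edgeR there were 3 of 9 (*Prkaca*, *Adcy5* and *Adrb1*), all higher in the libraries labelled KO, where 6.11% of all genes tested fall in either direction and 2.24% with a higher level in labelled KO. All 9 estimates were higher under the KO label, as were 47.3% of those of all genes tested, and the median log2 fold change of the 9 genes was 0.37 beside -0.018 over all genes. The summed cardiomyocyte markers were at 14435 to 59826 CPM under the WT label and 57638 to 69561 CPM under the KO label, and their part in this difference was not tested. For *Adra1a*, *Pde3a*, *Pde4d* and *Ppp1r1a* the exact permutation test, unadjusted, gave p = 0.556, 0.333, 0.492 and 0.857. The 9 genes were measured in the same libraries and were chosen with earlier results known, so these counts and p-values are a description.

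Library 3, labelled WT, was the lowest library for all 9 genes, as it was for 37.4% of all genes tested. Without it, 0 of the 9 genes passed an adjusted p of 0.05 in edgeR (0.382% of all genes). An unadjusted value under 0.05 was found for 5 of 9 (*Prkaca*, *Adcy5*, *Adrb1*, *Adcy6* and *Adra1b*), against 11.8% of all genes. Without library 3, 8 of 9 estimates were higher under the KO label, as were 50.6% of those of all genes. The median log2 fold change of the 9 genes was then 0.29 beside 0.003 over all genes. The log2 fold changes of *Adra1a*, *Pde3a* and *Pde4d* then lay between 0.013 and 0.023. The part of the lower cardiomyocyte marker sum in the values of library 3 was not tested.

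**Figure D3:**
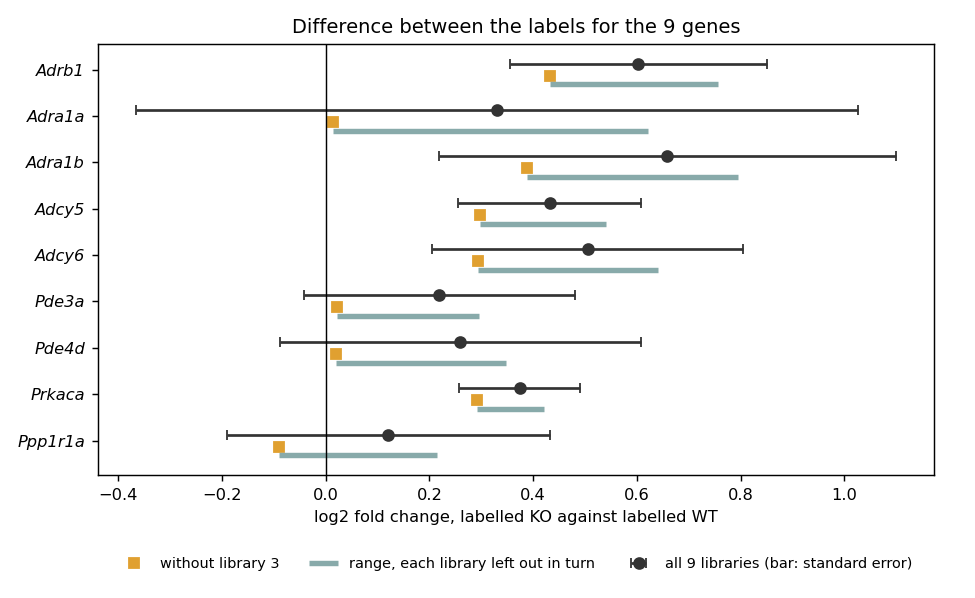
Log2 fold change of each of the 9 genes, labelled KO against labelled WT, with all libraries (circle, bar of 1 standard error), without library 3 (square), and as the range when each library was left out in turn (line). *Prkaca* ranges from 0.29 to 0.42 and *Adra1a* from 0.013 to 0.62, and of these leave-one-out lines only that of *Ppp1r1a* reaches below 0.

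The rest of the pathway was described with a list of 114 genes in 9 roles, of which 107 were tested, the 9 genes included. None had an adjusted p under 0.05 in edgeR (lowest 0.679), DESeq2 or limma voom, and 7 (6.54%) had an unadjusted value under 0.05 in edgeR, against 6.11% of all genes tested. Without library 3, none passed an adjusted p of 0.05 (lowest 0.167), and 19 (17.8%) had an unadjusted value under 0.05, against 11.8% of all genes. The median log2 fold change of the list was 0.036, and 61 of the 107 estimates were higher under the KO label, with 0.009 and 56 without library 3. The labels did not overlap for 8 of the 107 (7.48%), against 4.36% of all genes tested. Leaving out the 9 genes, 4 of 98 had an unadjusted value under 0.05, 2 in each direction, and the median was 0.012, and without library 3 these were 14 of 98 and -0.008.

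*Adora1*, the adenosine A1 receptor, which couples to the inhibitory G protein, had the lowest unadjusted value of the list, 0.0035 (edgeR adjusted p = 0.679), at 8.76, 9.36, 6.80, 7.04 and 8.60 CPM under the WT label and 12.4, 13.3, 10.5 and 10.5 CPM under the KO label, without overlap. The other 3 outside the set with an unadjusted value under 0.05 were *Gnaq*, the Gq alpha subunit to which alpha1 receptors couple, with a log2 fold change of -0.29, *Maoa*, which oxidizes catecholamines, with -0.51 (-0.28 without library 3), both without overlap, and *Per1*, a cAMP-responsive clock gene, with 0.34. In the role of G proteins and desensitization, 6 of 15 estimates were higher under the KO label, with a median log2 fold change of -0.13, which turned to 0.014, with 8 of 15 higher, without library 3. *Rgs5*, a regulator of G protein signalling known from pericytes and the gene of that role with the highest mean CPM, was at 276 CPM in library 3 and 733 to 1059 CPM elsewhere, and *Rgs2*, which acts on Gq, at 16.7 CPM against 45.7 to 75.3 CPM. *Chrm2*, the muscarinic receptor that opposes beta receptor signalling, was the most abundant gene of the receptor role in CPM, at 211 to 318 CPM outside library 3 and 111 CPM in it.

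Among the 16 phosphodiesterase genes, all tested, 8 estimates were higher and 8 lower under the KO label, 0 had an unadjusted value under 0.05 (6.11% of all genes), and the median was 0.011. *Pde3a* had the highest mean CPM of them, although *Pde1c* was above it in libraries 1, 7 and 9 (272, 223 and 295 CPM against 189, 208 and 185 CPM). The widest range was that of *Pde11a*, at 0.0539 CPM in library 3, under the floor, and 0.60 to 4.72 CPM elsewhere. Without library 3, *Pde11a* alone of the 16 had an unadjusted value under 0.05 (11.8% of all genes), with a log2 fold change of -1.31 (edgeR adjusted p = 0.331). The 9 tested genes of protein phosphatases 1 and 2A and their inhibitors had a median of -0.009, and *Ppp1r3a*, which brings phosphatase 1 to glycogen in muscle, led them in mean CPM.

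Of the 22 genes for PKA subunits, anchoring proteins and other cAMP effectors, all were tested and 1 (4.55%), *Prkaca*, had an unadjusted value under 0.05, against 6.11% of all genes, and without library 3 there were 3 (13.6%), against 11.8%. *Akap6*, the anchoring protein mAKAP of the nuclear envelope and the gene of this role with the highest mean CPM, was at 296 CPM in library 3 and 492 to 572 CPM in the others. In mean CPM per kilobase of exon, *Popdc2*, *Prkar1a*, *Pkia* and *Prkaca* were above *Akap6*. The 9 PKA substrate genes of the myocyte had estimates from 0.039 to 0.54, all above 0 (47.3% of all genes tested), and 0 with an unadjusted value under 0.05 (6.11% of all genes), or 1, *Mybpc3*, without library 3 (11.8%). Library 3 was the lowest library for 8 of the 9, and without it the estimates of *Ryr2*, the ryanodine receptor (-0.11), *Cacna1c*, the L-type calcium channel (-0.055), and *Hspb6*, a small heat shock protein (-0.033), were below 0. Among the substrates *Pln*, which encodes phospholamban, was at 1203 CPM in library 3 and at 7124 to 9020.4 CPM in the others, and *Tnni3*, which encodes cardiac troponin I, at 635 CPM against 3201 to 4928 CPM. The substrate with the largest estimate was *Mybpc3*, cardiac myosin-binding protein C, with 0.54 and no overlap between the labels, and 0.36 without library 3. The 12 genes of cAMP-responsive transcription had a median log2 fold change of -0.027, with 5 higher and 7 lower under the KO label, and *Ppargc1a*, the coactivator of mitochondrial biogenesis, was at 28.7 CPM in library 3 and 125 to 172 CPM elsewhere. Of the catecholamine genes, *Th*, tyrosine hydroxylase, and *Slc6a2*, the noradrenaline transporter, did not pass the filter on low counts, with highest levels of 0.0462 and 0.214 CPM.

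**Figure D4:**
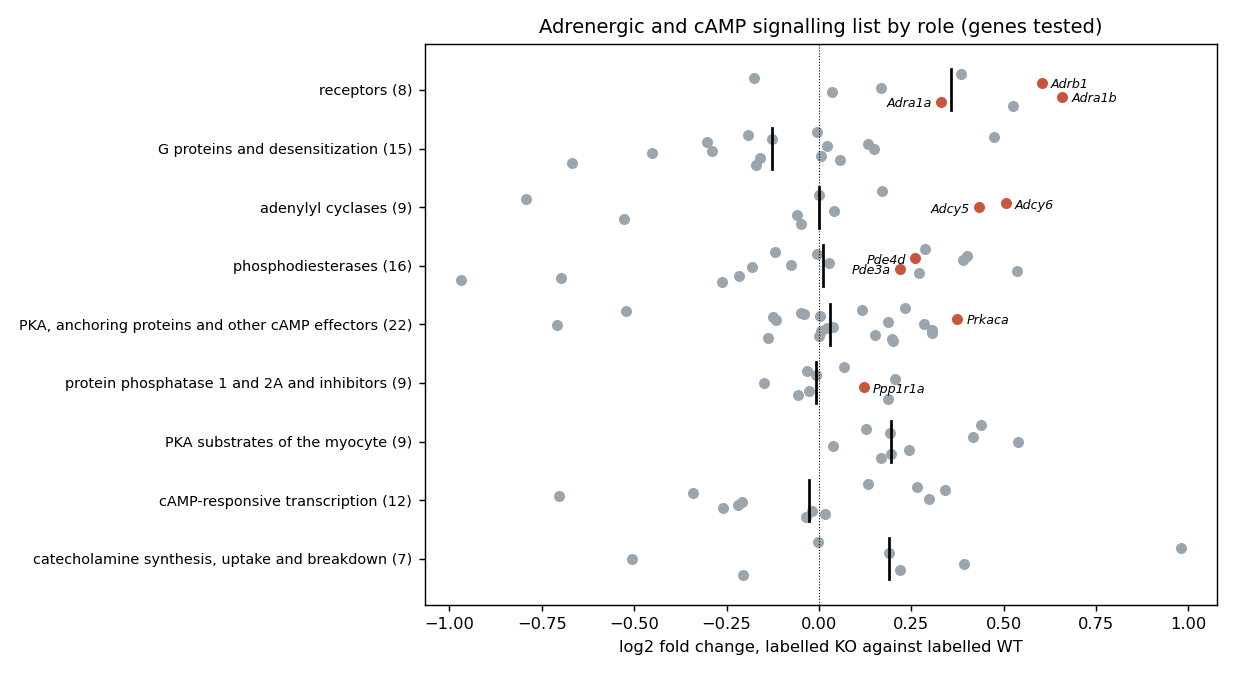
Log2 fold change between the labels for the 107 genes tested of the adrenergic and cAMP list, 1 point per gene, grouped by role with the number tested in brackets and the median of each role as a vertical line. The 9 genes described here are in red and lie between 0.12 and 0.66, while the rest spread from -0.97 to 0.98.

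For the 3 genes with the widest range over the libraries, the protein-coding genes with the nearest pattern were found by the root mean square difference of log2 CPM, centred over the 9 libraries, among 13408 genes. For *Adra1a* these were *Armc2* (difference 0.194) and *Gpr22*, an orphan receptor gene (0.217), where the median over genes was 1.37. Both had their lowest level in library 3, 1.91 and 4.67 CPM, and were at least at 25.1 and 60.9 CPM elsewhere. For *Adra1b* they were *Agtr1a*, the angiotensin II type 1a receptor (0.0801), and *Eno3*, the muscle enolase (0.101), and for *Pde4d* they were *Stc2* (0.089) and *Cdh23* (0.0924). *Agtr1a* was at 5.80 CPM in library 3 and 22.4 to 44.9 CPM elsewhere.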

How the data were processed

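Left ventricular total RNA was depleted of ribosomal RNA and sequenced as stranded libraries with 50-base single-end reads. The authors aligned the reads to GRCm38 and deposited each gene's raw count, not normalized; the submitters' processing notes name STAR 2.7.2c and featureCounts 1.6.3. Which Ensembl release and strand setting were used, and how multi-mapping reads were treated, is not given in the sources used here. Symbols, coordinates and exon lengths are from GENCODE M21.

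The 9 libraries were grouped by the deposited labels. The member genes and gene lists were chosen with earlier results of these data known, and with them a contrast between libraries low and high in *Vdac2*. That contrast was not computed, because it would group libraries by a measured level rather than by their labels. edgeR 4.0.16 (R 4.3.3) was run with filterByExpr, TMM, robust dispersions and its quasi-likelihood test, adjusting p by Benjamini-Hochberg across 16322 tested genes. A standard error (SE) is the size of the log2 fold change over the root of its F statistic. Exact two-sided permutation tests (SciPy 1.17.1) used log2(CPM + 0.5). Genes were named by rule: the members, *Vdac2*, listed genes past the threshold, the most abundant (highest mean CPM) and the most variable gene of each role, and the nearest patterns. Others named were chosen after their values were seen. The script was tested on counts simulated with a common dispersion and no outlying library. It called 45% of genes changed by a log2 fold of 1 and 100% of those changed by 2. Smaller changes, such as the estimates of the 9 genes, were not simulated. Alternatives were DESeq2 1.42.0, limma 3.58.1 (voom with quality weights), other normalizations in edgeR (RLE, upper quartile), no filter or a stricter one (every library at 10 counts or more), removal of the mitochondrial genome's own genes, and omission of each library in turn. All 9 columns were used.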

Additional observations from a re-analysis of the deposited data

Results flagged for a closer look

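Library 3 lay far below the other 4 libraries labelled WT, by Dixon's test at the 95% level on log2(CPM + 0.5), for 6 of the 9 genes. Its levels were 1.27 CPM for *Adra1a*, 2.16 CPM for *Adra1b*, 41.4 CPM for *Adcy6*, 77.1 CPM for *Pde3a*, 18.3 CPM for *Pde4d* and 0.297 CPM for *Ppp1r1a*. Each gene was examined in both labels, 18 groups in all, of which chance would flag about 1 in 20. No library labelled KO was marked. The study left out a WT sample whose RNA was of poor quality without naming it, so library 3 was kept and the results are given with and without it.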

How the results depend on the processing

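None of the 9 genes, and none of the pathway list, had an adjusted p under 0.05 under any alternative run. The count over all genes was 9 with edgeR, 70 with DESeq2, 77 with limma voom and quality weights, and 0 with at least 10 counts in every library, and leaving out each library in turn gave 5 to 62, the highest without library 3. The estimate of *Ppp1r1a* changed sign with limma voom (-0.12) and without library 3, and over the libraries left out it ranged from -0.091 to 0.21. The other 8 genes kept their direction under every alternative run, although *Adra1a*, *Pde3a* and *Pde4d* fell to 0.013, 0.023 and 0.020 without library 3. The lowest log2 fold changes with each library left out were 0.29 for *Prkaca*, 0.30 for *Adcy5*, 0.43 for *Adrb1*, 0.29 for *Adcy6* and 0.39 for *Adra1b*, again without library 3. *Prkaca* had an unadjusted value under 0.05 in all settings, while *Adrb1* and *Adcy5* did not keep it without library 5, 6 or 9, nor *Adrb1* without library 1 or 8, nor *Adcy5* without library 2, 4 or 7. No paired analysis was possible because the labelled groups share no replicate number. Depth limits *Ppp1r1a* most, at 11 to 40 counts per library.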

Other observations

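Several genes of the wider list varied within the labels more than between them, and are given by library because their values were seen to differ there. *Pde1c*, a calcium-stimulated phosphodiesterase, was at 272, 136, 64.2, 134 and 196 CPM under the WT label and at 133, 223, 123 and 295 CPM under the KO label, with a log2 fold change of 0.27 (SE 0.41; edgeR adjusted p = 0.813). Without library 3 its log2 fold change was 0.065. *Nppa*, an atrial marker outside the wider list, was at 951, 73.8, 3347, 80.4 and 157 CPM under the WT label and 104, 401, 72.8 and 1523 CPM under the KO label. Outside library 3 the 4 highest libraries of *Pde1c* and *Nppa* stood in the order 9, 1, 7 and 5. *Vdac2* was at 19.1, 20.2, 20.5 and 21.3 CPM in these libraries. *Adra2b*, the alpha2B receptor, was at 0.919, 1.79, 0.378, 1.52 and 1.34 CPM under the WT label and at 1.78, 1.13, 1.74 and 0.693 CPM under the KO label. *Hcn4*, the pacemaker channel gated by cAMP, was at 2.36, 4.72, 0.324, 5.14 and 3.60 CPM under the WT label and at 4.64, 3.11, 3.53 and 1.80 CPM under the KO label. These levels were picked after they were seen, and no relation was tested.

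In library 3 other genes of the list were the highest of all libraries. *Adcy7*, an adenylyl cyclase expressed in blood cells, was at 111 CPM in library 3 and 19.7 to 28.2 CPM elsewhere, and *Arrb2*, beta-arrestin 2, at 29.4 CPM against 6.83 to 10.5 CPM. The macrophage marker sum was also highest in library 3, at 1322 CPM against 264 to 584 CPM, and its part in these values was not tested. Of the 107 genes tested, library 3 was the lowest for 60 (56.1%) and the highest for 32 (29.9%), against 37.4% and 37.7% of all genes tested.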
